A study of Arabidopsis thaliana with 15 samples.

Results

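DNA methylation was examined at 10 genes of the RNA-directed DNA methylation (RdDM) pathway of Arabidopsis thaliana, 10 of 27444 protein-coding genes on chromosomes 1 to 5. The genes were chosen by their known role: NRPD1 (AT1G63020), CLSY1 (AT3G42670), SHH1 (AT1G15215), RDR2 (AT4G11130), DCL3 (AT3G43920), AGO4 (AT2G27040), AGO6 (AT2G32940), AGO9 (AT5G21150), NRPE1 (AT2G40030) and DRD1 (AT2G16390). For each gene the annotated body and the 1 kb before its start were followed in 300-bp windows. The assay was MethylC-seq, a bisulfite sequencing method that reads unmethylated cytosines as thymine and leaves methylated ones. A level is the percentage of calls in a context (CG, CHG or CHH, where H is A, C or T) that were methylated in 1 library.

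All samples were Col0 wild type, with seed from a single batch of plants and 3 biological replicates per time point, as given in the methods of the study. The 5 time points were dry seed after 14 days of dark drying (0 h), seed after 2 days of cold stratification at 4 C (48 h S), and stratified seed then kept at 22 C in unbroken light for 6 h (6 h SL), for 24 h (24 h SL) or for 48 h (48 h SL). The tissue is labelled seed at the start, seedling at 48 h SL and germinating seed at the 3 time points between them. At either end of the series, tissue and time therefore cannot be told apart. Whole seeds hold embryo, endosperm and seed coat, and in such a mixture a change within cells and a change in the share of cells cannot be told apart. Calls carry no transcript, so the tissue labels could not be checked against marker genes.

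RdDM is the plant pathway that uses small RNAs to direct methylation to matching DNA. RNA polymerase IV, with its accessory factors, makes short transcripts that RDR2 turns into double strands and DCL3 cuts into small interfering RNAs. Argonaute proteins carry these RNAs to transcripts of RNA polymerase V, and the methyltransferase DRM2 is then recruited to methylate cytosines, including those in CHH, which are not symmetric and need repeated targeting. The pathway is known for silencing transposons and repeats, and CG methylation within transcribed genes is kept up by a different enzyme, MET1.

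The windows shown here carried the highest CHH level at NRPD1, NRPE1 and DCL3, the genes whose CHH level over the 1 kb upstream was called lower at 48 h SL. Each is the plus strand of TAIR10.1 (RefSeq), 5' to 3'. Capitals mark CHH cytosines, as C on the printed strand or G on the other strand, with a level of at least 30% at 0 h over at least 10 calls summed across the 3 libraries. The NRPD1 window, chr1:23363401-23363700, lay on the side of a gene transcribed from the minus strand, reached past the edge of its upstream kilobase at position 23363589, and had capitals at 26 of its 50 CHH cytosines. The NRPE1 window, chr2:16713901-16714200, had capitals at 22 of 58, and the DCL3 window, chr3:15753001-15753300, at 29 of 79.
NRPD1: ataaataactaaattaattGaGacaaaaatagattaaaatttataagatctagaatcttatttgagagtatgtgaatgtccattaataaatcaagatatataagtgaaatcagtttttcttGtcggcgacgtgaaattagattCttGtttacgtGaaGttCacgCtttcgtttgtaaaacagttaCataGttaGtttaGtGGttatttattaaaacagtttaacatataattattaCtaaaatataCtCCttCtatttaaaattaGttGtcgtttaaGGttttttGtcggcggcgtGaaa
NRPE1: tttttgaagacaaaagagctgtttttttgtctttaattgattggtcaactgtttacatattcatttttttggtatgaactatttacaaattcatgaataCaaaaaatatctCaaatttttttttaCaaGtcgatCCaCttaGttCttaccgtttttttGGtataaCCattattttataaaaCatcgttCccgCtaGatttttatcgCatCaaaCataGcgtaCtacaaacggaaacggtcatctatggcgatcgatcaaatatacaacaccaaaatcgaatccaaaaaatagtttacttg
DCL3: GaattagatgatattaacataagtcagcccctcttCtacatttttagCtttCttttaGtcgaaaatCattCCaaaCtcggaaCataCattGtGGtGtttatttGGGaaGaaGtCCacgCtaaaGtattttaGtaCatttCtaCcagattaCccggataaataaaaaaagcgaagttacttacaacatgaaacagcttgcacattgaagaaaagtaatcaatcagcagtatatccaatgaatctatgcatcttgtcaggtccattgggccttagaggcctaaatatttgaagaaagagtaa
In the DCL3 window the marked cytosines filled the side away from the gene and none lay in the stretch next to it, and in the NRPE1 window they filled the middle. At 48 h SL, 8 CHH cytosines of the NRPD1 window, 15 of the NRPE1 window and 19 of the DCL3 window were at 30% or more.

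The libraries held between 97238997 calls (24 h SL replicate 1) and 428839380 calls (48 h S replicate 3), or 2.27 to 10.01 calls per cytosine. Every member window passed the filter in CHH (224 of 224), while 207 of 224 passed in CHG and 148 of 223 in CG, which has fewer cytosines. Where CG and CHG were both under 1%, the background level in CHH went from 0.286% ± 0.0493 in dry seed to 0.594% ± 0.221 (SD, n = 3) with 48 h of light. The 48 h SL libraries stood at 0.625%, 0.798% and 0.360% in replicates 1, 2 and 3, so this background moved with time. The windows and regions called higher in CHH were also tested with it subtracted.

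Within 1 kb of the start, CHH methylation lay before NRPD1, NRPE1, DCL3 and, at a low level, DRD1. It fell there by 48 h SL at NRPD1, NRPE1 and DCL3. Over 2 kb upstream, CLSY1, AGO9 and DRD1 were called lower as well, as given further below. Over the 1 kb upstream the mean of the 15 libraries was 16.4% at NRPD1, 14.4% at NRPE1, 12.0% at DCL3 and 3.16% at DRD1. At the other 6 genes it lay between 0.230% (RDR2) and 1.68% (CLSY1). Among all genes, 18.1% had an upstream CHH level of 5% or more, and the median was 0.378%. Inside the gene bodies all 10 genes lay between 0.265% (NRPE1) and 0.388% (RDR2), beside a median of 0.310% over all genes.

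NRPD1, the largest subunit of RNA polymerase IV (chromosome 1, 23354685 to 23362589, minus strand), had upstream CHH levels of 16.2%, 18.1% and 18.0% in the 3 dry-seed libraries and of 9.19%, 9.59% and 12.5% at 48 h SL. In between, the libraries read 18.9%, 16.6% and 19.4% after stratification, 19.7%, 17.8% and 22.0% with 6 h of light and 15.4%, 18.0% and 14.1% with 24 h of light. Every library of the first 4 time points lay above all 3 of 48 h SL. With calls summed per time point the level fell by 7.13 percentage points from 0 h to 48 h SL (adjusted p = 0.00013, quasi-binomial model with dispersion moderated by limma, over all genes) and by 5.79 points from 24 h SL to 48 h SL (adjusted p = 0.0057 in the same model). With each library's background subtracted, the fall from 0 h was by 7.47 points (adjusted p = 8.57e-05).

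CLSY1, a chromatin remodeller that helps bring RNA polymerase IV to its loci, and SHH1, a histone reader with the same task, carried little CHH methylation in their upstream kilobase. The CLSY1 window with the highest level, at -421 bp from the start site, averaged 1.48% and ranged from 0 to 3.44% over the libraries. The highest SHH1 window averaged 0.406%. Neither gene's upstream region passed the test (adjusted p = 0.936 for CLSY1 and 0.733 for SHH1, quasi-binomial model).

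DCL3, the Dicer-like enzyme that cuts the double-stranded RNA (chromosome 3, 15753387 to 15760859, plus strand), had upstream CHH levels of 11.8%, 13.5% and 13.3% in dry seed and of 8.16%, 8.52% and 5.21% with 48 h of light. The levels were 11.1%, 12.98% and 13.04% after stratification, 15.5%, 14.9% and 15.2% with 6 h of light and 10.9%, 11.3% and 14.95% with 24 h of light. The 48 h SL libraries were the lowest 3 of the 15, and the highest levels were in the 6 h SL libraries and in 24 h SL replicate 3. The level fell by 5.25 points from 0 h to 48 h SL (adjusted p = 0.000613, quasi-binomial model) and by 5.2 points from 24 h SL (adjusted p = 0.0061), and by 5.58 points from 0 h after background subtraction (adjusted p = 0.000338). The far end of this kilobase overlaps the neighbouring gene AT3G43910, which ends before the windows of DCL3 whose values are given here. RDR2, the RNA-dependent RNA polymerase that acts just before DCL3, had the lowest upstream CHH level of the 10 genes, and its upstream kilobase overlaps the neighbouring gene AT4G11120.

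AGO4, AGO6 and AGO9, the Argonautes that bind the small RNAs, had upstream CHH levels of 0.361%, 0.321% and 0.350% over the 15 libraries, near the background level. AGO6 read 0.334%, 0.105% and 0.0912% in dry seed and 0.487%, 0.770% and 0.709% with 48 h of light. This was the only upstream region of the 10 that passed the test upward (adjusted p = 0.0486, quasi-binomial model), by 0.434 points. After background subtraction its adjusted p was 0.795, and when each library was left out in turn the call was kept only without 0 h replicate 1, 24 h SL replicate 1 or 48 h SL replicate 1. The upstream kilobase of AGO6 overlaps COP1. The highest CHH windows of AGO4, AGO6, AGO9 and RDR2 averaged 0.483%, 0.441%, 0.451% and 0.568%, and all 4 lay within the gene bodies.

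NRPE1, the largest subunit of RNA polymerase V (chromosome 2, 16714460 to 16723718, plus strand), had upstream CHH levels of 16.0%, 17.4% and 16.7% in dry seed and of 10.3%, 11.9% and 7.28% with 48 h of light. The levels were 16.2%, 17.2% and 16.1% after stratification, 16.7%, 14.6% and 14.2% with 6 h of light and 16.1%, 13.6% and 12.5% with 24 h of light. All 3 libraries of 48 h SL were below the other 12. The level fell by 6.58 points from 0 h (adjusted p = 9.4e-05, quasi-binomial model) and by 3.84 points from 24 h SL (adjusted p = 0.0356), and by 6.91 points from 0 h after background subtraction (adjusted p = 3.81e-05).

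DRD1, a chromatin remodeller that RNA polymerase V needs (chromosome 2, 7097280 to 7101351, plus strand), had upstream CHH levels of 3.89%, 2.83% and 3.42% in dry seed and of 2.66%, 2.53% and 2.60% with 48 h of light. The libraries of these time points did not overlap, but the difference missed the threshold (adjusted p = 0.125, quasi-binomial model).

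**Figure D1:**
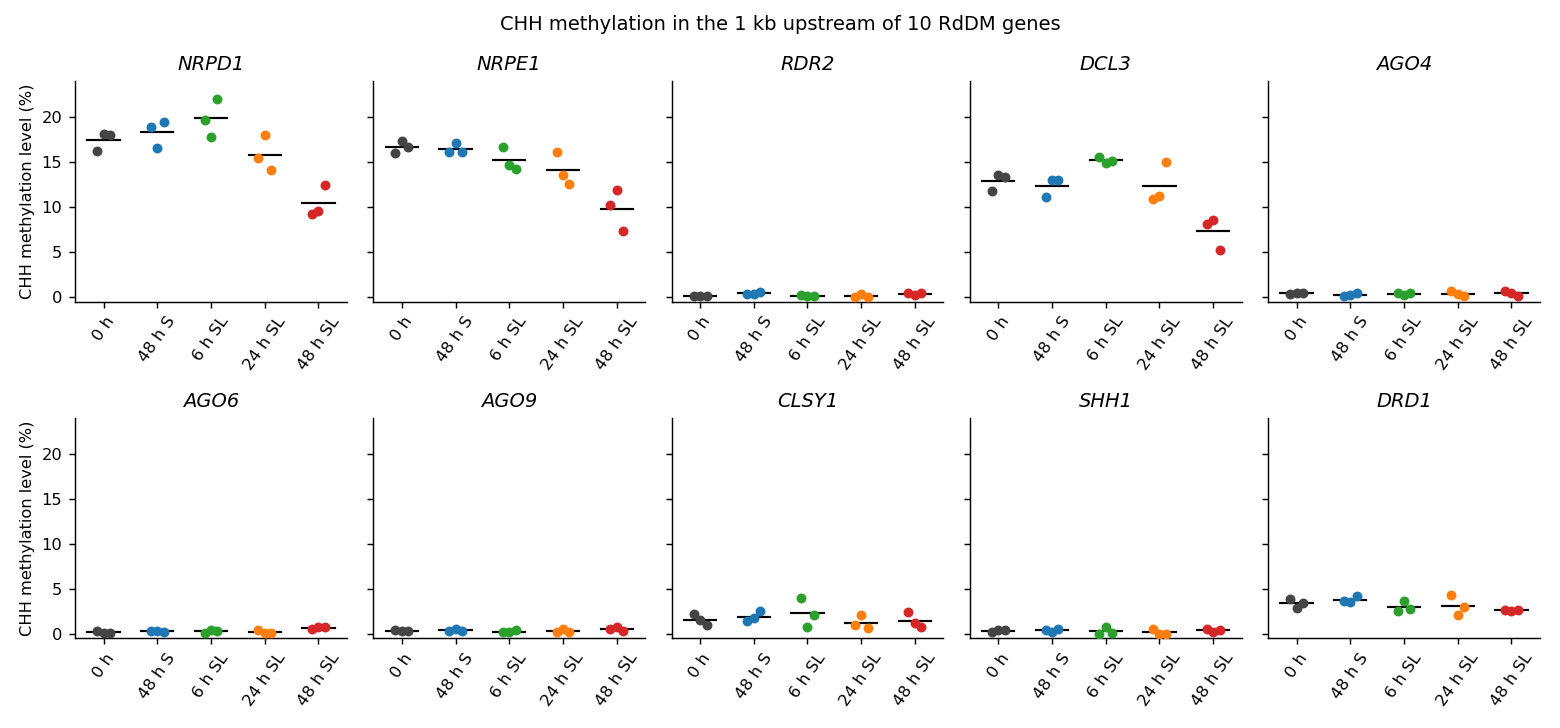
CHH level (percent of calls) over the 1 kb upstream of each of the 10 genes, with 1 point per library, in order of time, and a line for the mean of each time point. NRPD1, NRPE1 and DCL3 stood at 12.9% to 17.4% at 0 h and at 7.30% to 10.4% at 48 h SL, whereas the 6 genes other than these and DRD1 averaged at most 1.68% over the 15 libraries.

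In all, between 0 h and 48 h SL, 3 of the 10 upstream regions were called lower and 1 was called higher, beside 16.3% and 19.6% of all 27228 upstream regions tested. The median change was 0.0588 points over the 10 genes and 0.257 points over all genes. Without any single library, NRPD1, NRPE1 and DCL3 stayed below the threshold, with adjusted p of at most 0.0015, 0.000629 and 0.00329. From 24 h SL to 48 h SL, 3 of the 10 were called lower, beside 8.12% of all regions, and these were again NRPD1, NRPE1 and DCL3. No upstream region of the 10 was called at 48 h S, 6 h SL or 24 h SL against 0 h in the quasi-binomial model, beside 0.0% of all regions in each direction at 48 h S and 6 h SL, and 0.367% lower and 0.00367% higher at 24 h SL. At an unadjusted p under 0.05 there were 1, 0 and 1 of the 10 at these times, beside 4.59%, 3.52% and 8.41%, and 4 of the 10 at 48 h SL, beside 50.3%.

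At the scale of 300-bp windows, 6 of the 224 member windows had a mean CHH level of 10% or more, and all 6 lay upstream of NRPD1, NRPE1 or DCL3. Of the 224 member windows, 5 were called lower at 48 h SL than at 0 h, whatever the size of the change, beside 12.0% of all windows. All 5 were among these 6 methylated windows. A further 4 of the 224 were called higher, beside 2.95%. No member window passed the added minimum of 20 percentage points in the quasi-binomial model, beside 1.96% of all windows called lower and 0.0% higher (23 member windows had an unadjusted p under 0.05, beside 28.9%). limma on the transformed level also gave 0 at that minimum. With a minimum of 10 points 4 windows were called, but the share of all windows at 10 points was not counted, so these 4 cannot be set beside it. The median change was 0.182 points over member windows and 0.147 over all windows.

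At NRPD1 the window at -661 bp read 26.6%, 27.3% and 28.2% at 0 h, 29.3%, 29.3% and 30.7% after stratification, 32.2%, 30.8% and 36.2% with 6 h of light, 29.5%, 28.2% and 17.7% with 24 h of light and 12.1%, 13.4% and 22.8% with 48 h of light. It fell by 12.4 points from 0 h to 48 h SL (adjusted p = 0.0011, quasi-binomial model). Replicate 3 of 24 h SL lay within the range of 48 h SL, and all other libraries before 48 h SL lay above it. The next window, at -961 bp and printed above, read 28.1%, 32.1% and 24.5% in dry seed and 20.2%, 19.7% and 18.4% with 48 h of light, and it fell by 8.28 points (adjusted p = 0.0128, quasi-binomial model). This call was lost without 0 h replicate 1 (adjusted p = 0.0548) and without 0 h replicate 2 (adjusted p = 0.0665). Its 0 h and 48 h SL libraries did not overlap.

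At NRPE1 the window at -710 bp read 28.0%, 26.2% and 25.9% at 0 h, 26.7%, 25.7% and 25.0% after stratification, 28.6%, 23.7% and 23.0% with 6 h of light, 24.5%, 21.0% and 22.7% with 24 h of light and 14.9%, 18.8% and 11.2% with 48 h of light. It fell by 11.7 points (adjusted p = 4.45e-05, quasi-binomial model), the smallest adjusted p among the member windows. The printed window, at -410 bp, read 28.9%, 33.6% and 27.2% in dry seed and 19.2%, 20.4% and 13.2% with 48 h of light, and fell by 11.3 points (adjusted p = 0.000432). In both windows all libraries of the first 4 time points lay above the 48 h SL libraries, although 24 h SL replicate 3 at -410 bp came close with 22.3%.

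At DCL3 the printed window, at -237 bp, read 22.1%, 31.2% and 22.4% at 0 h, 19.3%, 25.3% and 25.9% after stratification, 30.1%, 26.6% and 27.6% with 6 h of light, 18.0%, 17.8% and 23.1% with 24 h of light and 13.3%, 15.0% and 8.63% with 48 h of light. It fell by 12.1 points (adjusted p = 0.000543, quasi-binomial model), with every earlier library above those of 48 h SL. The window at -537 bp, the one of the 6 that was not called, went from 13.4% ± 3.39 to 9.09% ± 1.74 (SD, n = 3, adjusted p = 0.0812). At DRD1 the highest window, at -930 bp, went from 6.32% ± 2.64 to 3.34% ± 1.04 (adjusted p = 0.0763), with overlapping libraries.

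**Figure D2:**
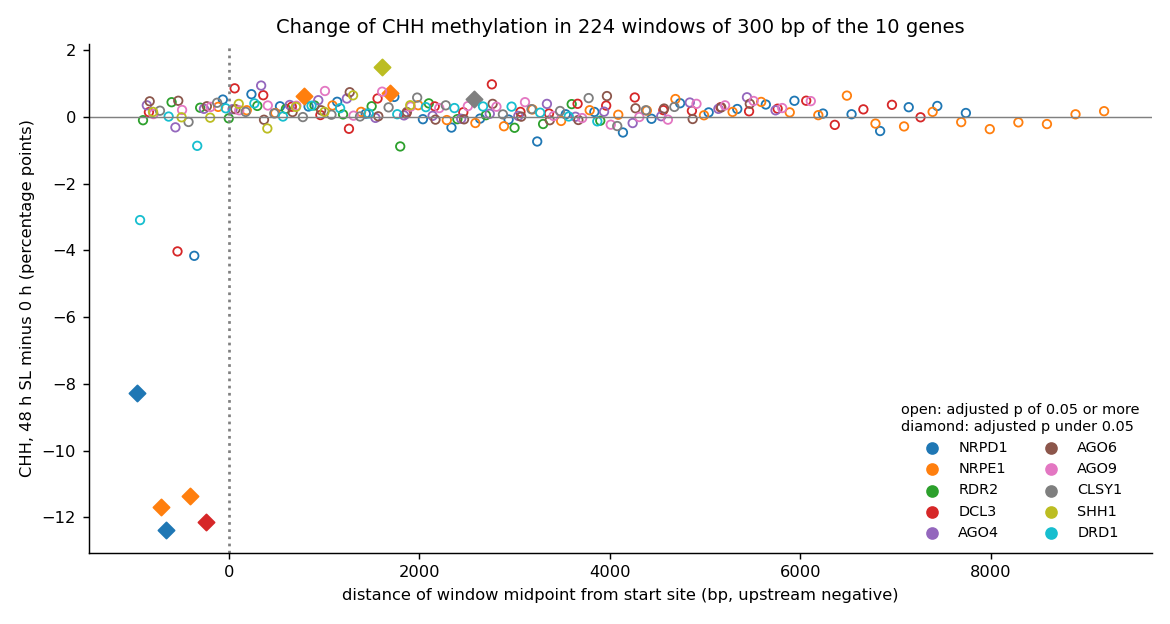
Difference in CHH level between 48 h SL and 0 h (percentage points, vertical axis) for each of the 224 windows of 300 bp against the distance of its midpoint from the start site (bp, horizontal axis), coloured by gene, with diamonds for an adjusted p under 0.05 and open circles for the rest. The 5 windows called lower lay upstream and fell by 8.28 points or more, and the 4 called higher lay in gene bodies close to the zero line.

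The 4 windows called higher lay within gene bodies and had almost no methylation: NRPE1 at 790 bp and 1690 bp, CLSY1 at 2579 bp and SHH1 at 1606 bp, with rises of 0.624, 0.719, 0.541 and 1.49 points. Their adjusted p lay between 0.0271 and 0.0409 in the quasi-binomial model. At NRPE1 790 bp no call was methylated in any of the 3 dry-seed libraries, and 48 h SL read 0.913%, 0.598% and 0.292%. SHH1 at 1606 bp read 0, 0.365% and 0 at 0 h and 2.65%, 1.33% and 0 at 48 h SL, so that its libraries overlapped. None of the 4 passed once each library's background was subtracted (adjusted p = 0.739, 0.602, 0.756 and 0.155) or in limma on the transformed level (0.0527, 0.0672, 0.0996 and 0.173). Leaving out 48 h SL replicate 1, 0 h replicate 2 or 0 h replicate 3 left 1 such window, leaving out 48 h S replicate 1 left 2, and leaving out 0 h replicate 1 left 0.

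Over whole gene bodies, CHH was called higher at 5 of 10 genes (AGO9, DCL3, AGO4, NRPE1 and SHH1), beside 28.7% of all gene bodies, and lower at 0, beside 5.42%. The rises were between 0.142 points (NRPE1) and 0.335 points (SHH1), and no gene body exceeded 0.516% at 48 h SL. With the background subtracted, and in limma on the transformed level, 0 of the 10 were called (9 had an unadjusted p under 0.05 in the quasi-binomial model, beside 49.4%). Leaving out 0 h replicate 1 or 48 h SL replicate 1 left 1 gene body. Any of 48 h S replicate 1, 6 h SL replicate 2, 24 h SL replicate 2 and 48 h SL replicate 2, when left out, gave 3. Leaving out 48 h SL replicate 3, the library with the lowest background of its time point, gave 9.

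In 100-bp steps the upstream methylation formed patches with sharp edges. At DCL3 the step from -300 to -201 bp stood at 51.0% ± 0.983 at 0 h and 27.1% ± 7.61 at 48 h SL, whereas the step next to it, from -200 to -101 bp, was at 0.905% at 0 h. At NRPE1 the step from -400 to -301 bp went from 49.0% ± 7.81 to 26.0% ± 5.72, and the next one towards the gene was at 3.00% at 0 h. The patch of NRPD1 was wider and flatter: its steps from -1000 to -401 bp stood between 18.8% and 30.7% at 0 h and between 11.6% and 20.3% at 48 h SL. In all 3 genes the last 200 bp before the start site had almost no CHH methylation.

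**Figure D3:**
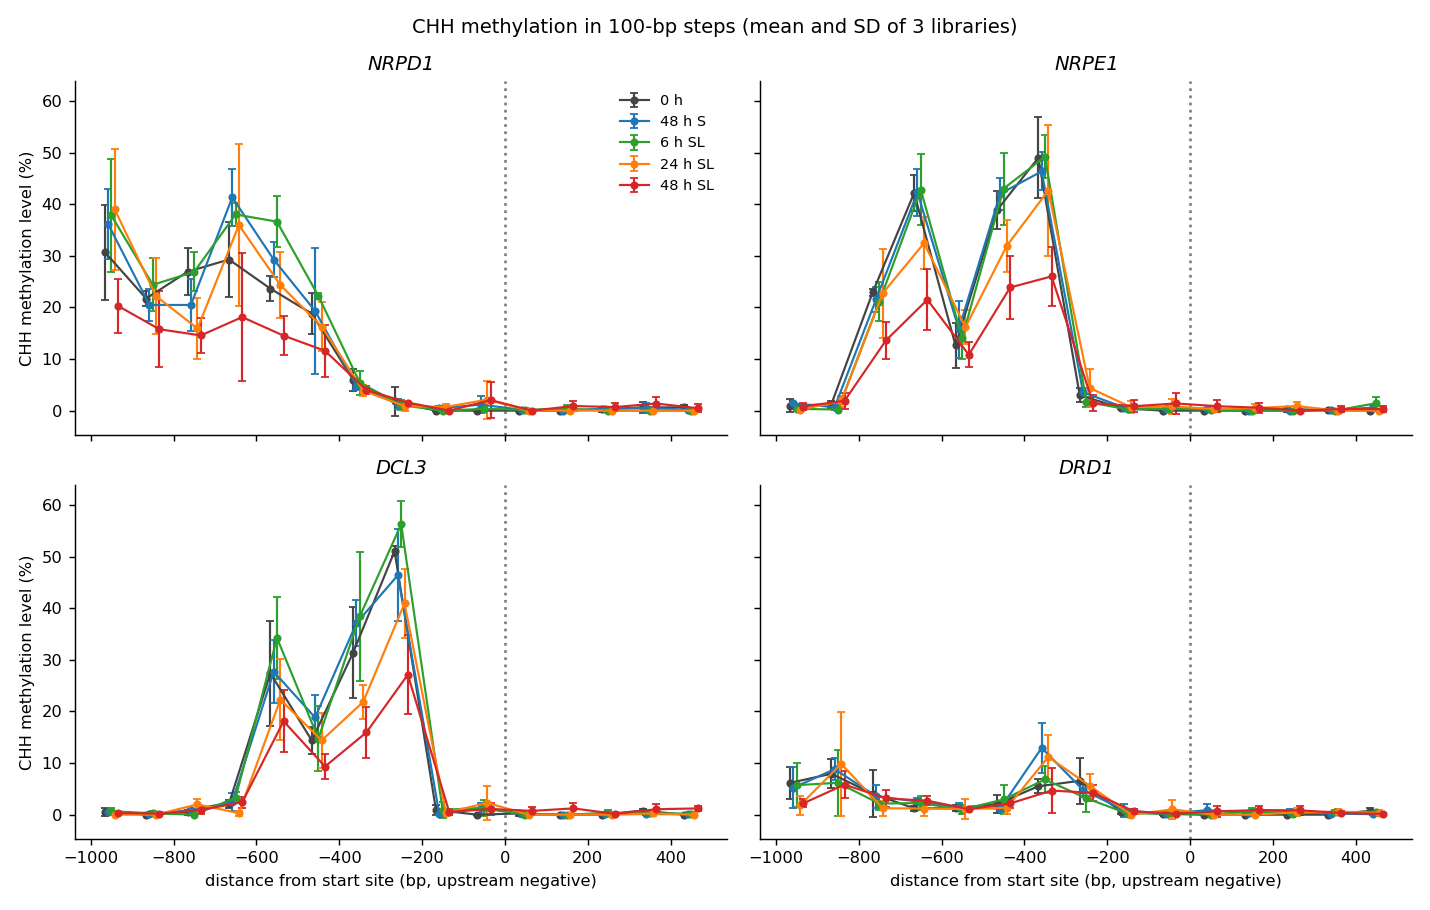
CHH level (percent, vertical axis) in 100-bp steps by distance from the start site (bp, horizontal axis) for NRPD1, NRPE1, DCL3 and DRD1, with 1 line per time point showing the mean of 3 libraries and bars for the SD. The patches of NRPD1, NRPE1 and DCL3 kept their position over time, and their most methylated steps were lowest at 48 h SL, such as the DCL3 step that went from 51.0% to 27.1%.

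Single cytosines of these patches were also compared between 0 h and 48 h SL. Of the upstream CHH cytosines at 20% or more at 0 h, 60 of 63 were lower at 48 h SL at NRPD1, 56 of 58 at NRPE1 and 49 of 52 at DCL3 (cytosines with at least 10 summed calls at both times). Their median went from 28.6% to 15.9% at NRPD1, from 42.7% to 23.5% at NRPE1 and from 44.2% to 27.9% at DCL3. Since these cytosines were picked for a high level at 0 h, part of such a fall follows from the choice, and no test was made. The share of all such cytosines of the genome that were lower was not counted. Counted at each time point by itself, cytosines at 20% or more went from 63 to 23 at NRPD1, from 58 to 45 at NRPE1 and from 52 to 36 at DCL3. Cytosines other than CAA or CTA, the triplets that the RdDM-independent methyltransferase CMT2 is known to prefer, kept 56.5% of their 0 h level at NRPD1, 55.4% at NRPE1 and 54.0% at DCL3, while CAA and CTA together kept 63.6%, 65.6% and 61.2%. Both groups of triplets were lower in every 48 h SL library than in any 0 h library at each of the 3 genes, and the difference between the triplet groups was not tested. Both strands fell as well.

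CG methylation was the main form within the genes. The mean over the 15 libraries in the gene body was 63.1% at DCL3, 52.7% at RDR2, 52.4% at NRPD1, 44.5% at CLSY1, 41.1% at DRD1, 32.0% at NRPE1, 29.1% at AGO4, 27.7% at SHH1, 14.5% at AGO6 and 2.43% at AGO9. The median over all genes was 4.37%. Among all genes the body of DCL3 stood at percentile 96.4, that of RDR2 at 95.5 and that of NRPD1 at 95.4, and AGO9, at percentile 45.1, was alone among the 10 in lying below the median. RDR2 and NRPD1, neighbours in this order, differed by less than the spread of their libraries.

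In CG, 90 of the 148 member windows tested had a mean level of 10% or more and 63 of 50% or more. The highest window of each gene lay in its body. At DCL3 it was at 2763 bp and ranged from 87.0% to 100% over the 15 libraries. At NRPD1 it was at 4139 bp, within coding exon, with 88.1% to 100%. At AGO4 it was at 3041 bp with 87.0% to 95.5%. The highest windows of RDR2 (1801 bp, 84.3% to 95.1%), NRPE1 (5290 bp, 77.3% to 91.9%), DRD1 (3570 bp, 79.1% to 89.7%), CLSY1 (1979 bp, 67.6% to 89.4%), AGO6 (1871 bp, 59.5% to 78.7%) and SHH1 (1306 bp, 58.8% to 78.4%) were also more methylated than not in every library. AGO9 alone peaked low, at 3411 bp with 12.0% to 43.1%. Exons carried more than introns: 58.0% against 25.8% at NRPD1, 47.8% against 10.2% at CLSY1, and 39.0% against 0.373% at SHH1, whereas the introns of DCL3 stood at 54.9% beside 64.2% in its exons.

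No gene body was called in CG between 0 h and 48 h SL, by the quasi-binomial model or by limma (2 had an unadjusted p under 0.05, beside 8.54% of all gene bodies; 0.208% of all were called lower and 0.0149% higher). Those 2 were NRPD1 and DCL3. NRPD1 read 53.1%, 53.4% and 54.4% in dry seed and 49.7%, 51.8% and 47.5% with 48 h of light (adjusted p = 0.121, quasi-binomial model). DCL3 read 65.4%, 63.2% and 63.8% in dry seed and 60.1%, 60.1% and 58.0% with 48 h of light (adjusted p = 0.147). At both genes the libraries of the 2 time points did not overlap. Over the 5 time points together, in the same model, NRPD1 passed (adjusted p = 0.0179) and DCL3 did not (adjusted p = 0.234). The share of all gene bodies that passed over the 5 time points was not counted, so the NRPD1 call cannot be set beside it.

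Upstream, the genes with CHH patches also had CG methylation: 67.0% at NRPE1, 63.0% at NRPD1, 44.0% at DCL3 and 38.8% at DRD1, beside 20.6% at RDR2 and at most 1.03% at the other 5. At the first 4 the mean CG level was higher at 48 h SL than at 0 h, where the mean CHH level was lower, but no CG difference passed the test. Of the 10 upstream regions 2 were lower in CG, beside 31.0% of all. The median CG change was 0.453 points over the 10 and 0.211 points over all genes. The median upstream CG level over all genes was only 0.373%. These medians therefore do not show how regions with similar CG levels changed, and that was not tested. NRPE1 read 66.2%, 54.6% and 60.9% in dry seed and 74.7%, 73.6% and 70.6% with 48 h of light (adjusted p = 0.106, quasi-binomial model). The means at NRPD1 were 62.1% ± 2.22 and 66.8% ± 0.736, at DRD1 34.9% ± 3.34 and 43.8% ± 4.76, and at DCL3 42.2% ± 0.960 and 47.7% ± 5.63 (SD, n = 3). None of the 10 upstream regions was called in CG, by either the quasi-binomial model or limma (3 had an unadjusted p under 0.05, beside 11.2%; 0.0296% of all regions were called lower and 0.0148% higher). With the dispersion floored before moderation, an alternative chosen after seeing the data, NRPE1 passed (adjusted p = 0.00217).

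In CG windows, 1 of 148 was called higher at 48 h SL with the 20-point minimum, beside 0.00685% of all windows, and 0 were called lower, beside 0.00381% (16 had an unadjusted p under 0.05, beside 8.61%). It was the DRD1 window at -330 bp, chr2:7096801-7097100, printed here because it is the only member window that passed with that minimum. Capitals mark its 5 CG dinucleotides on the plus strand of TAIR10.1.
DRD1: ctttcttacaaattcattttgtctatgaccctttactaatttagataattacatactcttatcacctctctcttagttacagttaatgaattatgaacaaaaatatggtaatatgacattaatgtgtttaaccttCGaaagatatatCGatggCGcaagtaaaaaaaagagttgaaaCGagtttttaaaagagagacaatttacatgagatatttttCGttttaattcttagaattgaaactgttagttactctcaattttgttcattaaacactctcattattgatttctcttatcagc
The window read 47.4%, 57.1% and 56.8% at 0 h, 63.9%, 68.3% and 73.2% after stratification, 76.1%, 67.1% and 62.8% with 6 h of light, 80.6%, 77.6% and 70.0% with 24 h of light and 76.2%, 71.2% and 76.8% with 48 h of light. The 3 dry-seed libraries were the lowest of all 15, and their values were already apart from those after stratification. No CG window of the genome was called at 48 h S against 0 h in the quasi-binomial model. From 0 h to 48 h SL the level was 22.1 points higher (adjusted p = 0.0331, quasi-binomial model). Each of the 5 CG sites was higher at 48 h S and at 48 h SL than at 0 h, such as the site at -332 bp with 38.3% at 0 h, 60.7% at 48 h S and 71.9% at 48 h SL. Since the window was picked for its rise, such agreement of its sites follows in part from the choice, and the sites were not tested. The window held only 36 to 157 calls per library. Its call was lost in limma (adjusted p = 0.0812) and without 0 h replicate 1 (0.248), 0 h replicate 2 (0.0674), 0 h replicate 3 (0.0893), 48 h SL replicate 1 (0.0814) or 48 h SL replicate 3 (0.0806).

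**Figure D4:**
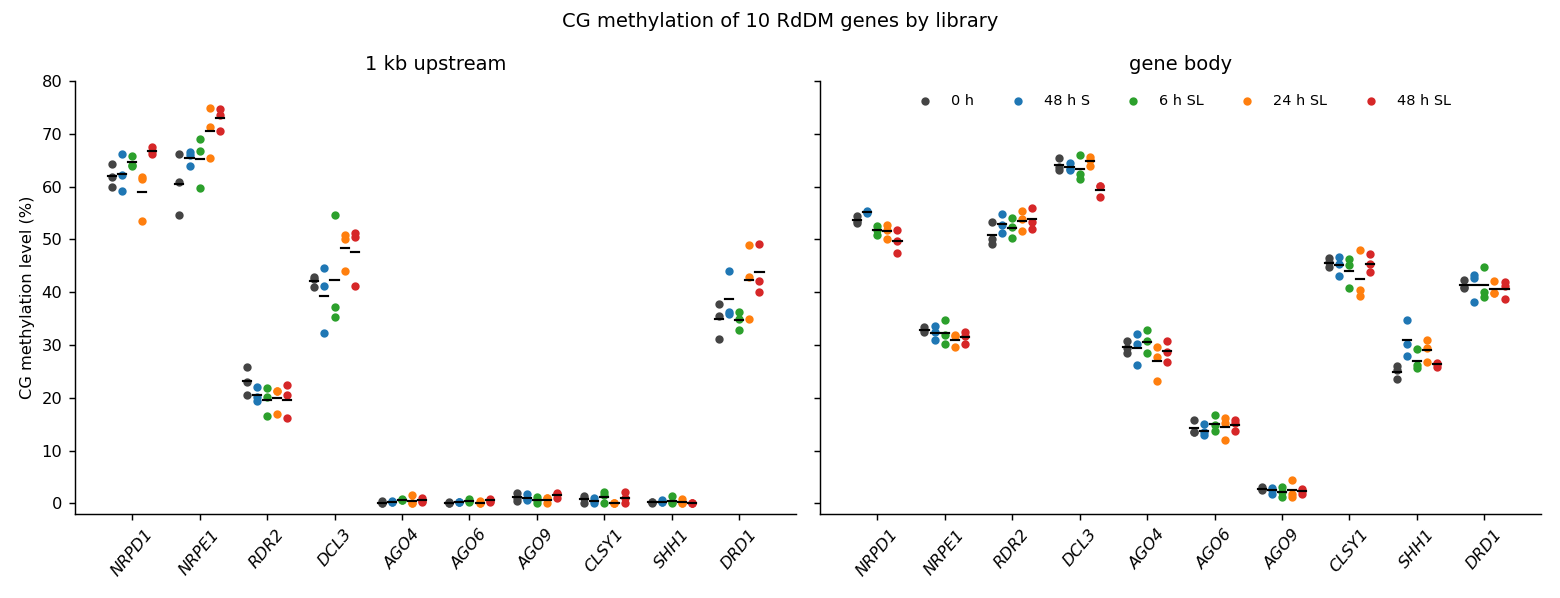
CG level (percent) by library over the gene body and the 1 kb upstream of the members, in order of time, with the mean of each time point. Levels in the gene bodies ran from 2.43% at AGO9 to 63.1% at DCL3 and differed far more between genes than between time points.

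CHG methylation was highest in the same upstream patches. Over the upstream kilobase NRPE1 had 19.8%, DCL3 13.4% and NRPD1 11.5% on average, DRD1 had 2.90%, and the other 6 genes had at most 1.10%. In the gene bodies all 10 lay between 0.239% and 0.639%. The window printed for NRPD1 had the highest CHG level of all member windows, 34.5% on average with a range from 23.2% to 46.6%, ahead of the printed windows of NRPE1 (23.6%, from 11.3% to 34.9%) and DCL3 (18.0%, from 11.8% to 27.6%). Among windows that passed the filter on calls, the highest CHG windows of the other 7 genes averaged at most 1.14%. At DRD1 this leaves out 3 of 17 windows, and its 14 tested windows reached 0.996%. No CHG window, upstream region or gene body of the 10 genes was called at 48 h SL against 0 h, by the quasi-binomial model or by limma. The unadjusted counts were 4 of 207 windows, 0 of 10 upstream regions and 1 of 10 gene bodies, beside 5.27%, 13.1% and 13.6% of all, and 0.0984% of all windows were called lower and 0.00067% higher, as were 0.986% and 0.0812% of upstream regions and 0.32% and 0.164% of gene bodies. NRPE1 read 19.0%, 18.1% and 19.0% in dry seed and 19.3%, 14.2% and 13.2% with 48 h of light, and NRPD1 10.08%, 14.4% and 8.29% against 11.7%, 17.4% and 14.0%, so the libraries overlapped at both.

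In the preceding intervals no member window was called in CHH with the 20-point minimum, by the quasi-binomial model or by limma: 0 at 48 h S (9 at unadjusted p under 0.05, beside 5.77%), 0 at 6 h SL (8, beside 5.29%) and 0 at 24 h SL (9, beside 7.83%), where 0.0%, 0.0% and 0.0148% of all windows were called lower. At any size of change the member counts were 0 as well, beside 0.0975% of all windows lower and 0.00026% higher at 24 h SL and 0.0% in each direction at the earlier times. Between 24 h SL and 48 h SL, 2 member windows passed downward at any size of change, beside 4.05% of all, and 1 passed upward, beside 0.262%, while 0 passed the 20-point minimum, beside 0.581% lower (26 had an unadjusted p under 0.05, beside 17.9%). The windows that fell in this interval were NRPE1 at -710 bp, by 7.49 points (adjusted p = 0.0269, quasi-binomial model), and NRPD1 at -661 bp, by 9.42 points (adjusted p = 0.0475). The window that rose was AGO4 at 341 bp, from 0 in all 3 libraries of 24 h SL to 1.23% ± 0.327 (adjusted p = 0.0287). The background mean went from 0.342% to 0.594% over the same interval, and with each library's background subtracted the adjusted p was 0.429 for this window, 0.0503 for the NRPE1 window and 0.0547 for the NRPD1 window, so that none of the 3 calls was kept in the quasi-binomial model, although both falls were then slightly larger (by -7.77 and -9.72 points). Over the whole course 8 of 224 member windows differed between time points, beside 13.3% of all.

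Further upstream, between 1 and 2 kb from the start, CHH methylation also lay at CLSY1, AGO9 and DRD1, whose levels were higher over 2 kb than over 1 kb. With a 2 kb upstream region, which overlaps the 1 kb region and was tried as an alternative, CLSY1 went from 24.5% ± 1.21 to 14.7% ± 1.61 (SD, n = 3, adjusted p = 1.38e-05, quasi-binomial model), AGO9 from 11.02% ± 0.315 to 5.99% ± 2.85 (adjusted p = 0.00372) and DRD1 from 8.82% ± 1.49 to 5.78% ± 0.813 (adjusted p = 0.00141). The same test also called NRPD1 (by -4.71 points), NRPE1 (by -3.18 points) and, more weakly, DCL3 (by -2.44 points, adjusted p = 0.017) lower, and it called RDR2 higher by 0.352 points (adjusted p = 0.0475) and AGO6 by 0.311 points (adjusted p = 0.0466), both less than 1 point. The share of all genes called over 2 kb upstream was not computed, so these calls cannot be set beside it. With the background subtracted the 6 falls were kept, with adjusted p of at most 0.00853, and the rises were not (adjusted p = 0.135 for RDR2 and 1 for AGO6). Between 1 and 2 kb upstream, 3 of the 34 windows tested, or 8.82%, were called lower with the 20-point minimum and 0 higher. Over all windows of the genome, whatever their distance from a gene, the shares were 1.96% and 0.0%. Windows at this distance from all genes were not counted apart, so an excess was not measured. The 3 lay at CLSY1 and AGO9, and the CLSY1 windows were adjacent. The CLSY1 window at -1321 bp read 57.1%, 54.7% and 50.4% in dry seed, 49.4%, 52.7% and 51.8% with 24 h of light and 24.0%, 25.5% and 29.1% with 48 h of light (adjusted p = 1.17e-06, quasi-binomial model). The CLSY1 window at -1621 bp fell by 23.3 points (adjusted p = 4.4e-05). The AGO9 window at -1989 bp read 39.3%, 37.7% and 46.7% in dry seed, 25.8%, 25.6% and 22.7% with 24 h of light and 24.0%, 17.2% and 12.0% with 48 h of light (adjusted p = 7.16e-06). At CLSY1 -1321 bp the libraries of 24 h SL stood close to those of dry seed, while at AGO9 they lay below all dry-seed libraries. The AGO9 window was already below all dry-seed libraries after stratification (29.4% to 34.3%) and with 6 h of light (32.9% to 35.3%). However, no CHH window of the genome was called at 48 h S or 6 h SL against 0 h in the quasi-binomial model.

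The deposited lists of differentially methylated regions, which the authors called on the same libraries, held 5 CHH regions within the body or upstream kilobase of 3 of the 10 genes, where 17.9% of all genes had such a region. These lists held 14888 CG, 10655 CHG and 22441 CHH regions in all and were used as deposited, with no minimum size of change, whereas the methods of the study describe a further filter on that size. The 5 lay upstream of NRPD1, NRPE1 and DCL3, inside the patches. The levels computed here for them went from 66.8% to 38.9% at NRPE1 -398 bp, from 41.8% to 22.8% at NRPE1 -677 bp, from 43.7% to 23.6% at DCL3 -315 bp, from 38.9% to 23.9% at NRPD1 -673 bp and from 24.7% to 12.2% at NRPD1 -512 bp. Since the regions were selected for a change, these values are a description and no test was made. In CG the lists held 16 regions at 7 of the genes (29.1% of all genes had at least 1), and in CHG 0 (10.4%). Most of the 16 differed little between 0 h and 48 h SL, the smallest by 1.39 points (NRPD1 at 1836 bp) and the largest by -23.1 points (DCL3 at 3559 bp).

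Among 24 other genes of the pathway, 12 of 443 CHH windows were called lower and 10 higher between 0 h and 48 h SL at any size of change, beside the same 12.0% and 2.95%. With the 20-point minimum 1 passed, at DCL4, a Dicer-like enzyme that makes other small RNAs. It lay at -243 bp and read 44.8%, 54.0% and 41.6% in dry seed and 21.6%, 25.3% and 22.7% with 48 h of light (adjusted p = 1.37e-06, quasi-binomial model). Other falls, named after their values were seen, were at NRPD2, a subunit shared by RNA polymerases IV and V, at -541 bp by 16.0 points, at the CLSY1 relative CLSY4 at -521 bp by 18.5 points, and at HEN1, which methylates small RNAs, at -527 bp by 18.3 points. In their upstream kilobases 6 of the 24 were called lower and 4 higher, beside 16.3% and 19.6% of all genes, and of their bodies 1 was called lower and 13 higher, beside 5.42% and 28.7%. With the background subtracted none of these windows, upstream regions or bodies was called higher in the quasi-binomial model, while 14 windows, 6 upstream regions and 1 body were called lower. The shares of all windows, upstream regions and bodies called after subtraction were not counted, so these counts cannot be set beside them.

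Over body and upstream region together NRPD1 had the highest CHH level of the 10 genes, 2.52% on average. The protein-coding genes whose levels were closest to it over the 15 libraries were AT1G50620, AT1G22420 and AT2G16960, at Euclidean distances of 1.02, 1.04 and 1.22 percentage points.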

How the data were processed

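Single-end MethylC-seq reads of 15 libraries were trimmed (Trim Galore 0.4.2), aligned to TAIR10 and deduplicated with Bismark 0.16.3 by the authors, and the deposited tables hold counts of methylated and unmethylated calls per cytosine. Bisulfite reads that escape conversion count as methylated and can raise low CHH levels. The lists of differentially methylated regions were called by the authors with HOME on these libraries, and only their coordinates were used, counted from 1 with both ends included, since 100% of listed starts and ends then fell on a cytosine of the named context. Background subtraction in windows between 24 h SL and 48 h SL, over 2 kb upstream and at the other pathway genes was chosen after seeing the data. The members and gene lists were chosen with earlier results of these data known.

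Calls were summed per library over 300-bp windows, gene bodies and 1 kb upstream, with at least 20 calls in every library and, for windows, at least 3 cytosines. All 15 libraries entered a quasi-binomial model of the counts with time point as factor, with the dispersion moderated by squeezeVar of limma 3.58.1 (R 4.3.3) and floored at 1, and Benjamini-Hochberg adjustment over all windows or genes. Windows were called at an adjusted p under 0.05 with a difference of 20 points, or, where stated, of any size. Differences in points are between levels of summed calls, and means ± SD are over 3 libraries. Tests were two-sided, and the code was tested on simulated data. There, falls were placed among the more methylated features with an assumed spread between libraries, so the rates need not hold for weakly methylated windows. Changes of 15 points were recovered in 27.5% (CG), 13.0% (CHG) and 39.5% (CHH) of changed windows at an adjusted p under 0.05. Those of 30 points were recovered in 93.5%, 94.5% and 98.0%. Changes of 10 points were recovered in 23.0% (CG) and 18.5% (CHG) of upstream regions, and in 21.5% and 7.0% of gene bodies. False calls reached 10.2% of calls in CHH windows and 15.9% in upstream CHG. Changes of 10 or 15 points can therefore go uncalled. Background was the CHH level of windows under 1% in CG and CHG. Depth was 2.27 to 10.01 calls per cytosine. Without molecular identifiers, calls may repeat molecules.

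Alternatives were limma on the transformed level, a replicate block, other window sizes and call minimums, a 10-point minimum, 2 kb upstream, background subtraction and leaving out each library. All 10 members are named, with values for each called window and for the highest window of each context, for other pathway genes with a called window, and for the 3 genes nearest to the member with the highest CHH level. Gene models and sequences came from TAIR10.1 (RefSeq). Python 3.11.15, numpy 2.4.6, scipy 1.17.1 and pandas 2.3.3 were used.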

Additional observations from a re-analysis of the deposited data

How the results depend on the processing

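The falls of upstream CHH at NRPD1, NRPE1 and DCL3 kept their direction under every alternative run, with adjusted p from 3.81e-05 to 0.000956 over limma, the dispersion floored first, the replicate block, the 40-call minimum and background subtraction, and of 1.99e-05, 0.00134 and 0.017 with 2 kb upstream. They lost their calls only where a 10-point minimum, which none of them reached, was added. Counts moved as follows. The 1 CG window called was 0 under limma, with at least 40 calls, and with 100-bp or 1000-bp windows. The 0 CHH windows at 20 points became 4 with a 10-point minimum, 3 with 2 kb upstream and 2 in 100-bp windows. The share of all windows was not counted with the 10-point minimum or in 100-bp windows. The 4 CHH windows called higher at any size became 0 under limma, 0 with background subtracted, 0 in 100-bp windows, 1 with the dispersion floored before moderation (chosen after seeing the data) and 1 with the replicate block. The 0 upstream CG regions became 1 with the dispersion floored first. The 4 upstream CHH regions became 0 with a 10-point minimum and 8 with 2 kb upstream (6 lower and 2 higher), where no share of all genes was computed. The 5 gene bodies in CHH became 0 with a 10-point minimum, under limma and with background subtracted. With 2 kb upstream the deposited regions became 2 in CHG, from 0, and 11 in CHH, from 5.

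Leaving out each library in turn gave 0 to 1 CG windows, 4 to 6 CHH windows lower and 0 to 4 higher at any size, 3 to 4 upstream CHH regions and 1 to 9 gene bodies in CHH, and 0 to 0 for the other counts. Replicate numbers did not pair the libraries: the correlations of same-numbered libraries lay between -0.0207 and 0.0138 over 30 pairs, and 5 of 15 libraries were closest to their own number. With the block 3 upstream CHH regions, 4 gene bodies in CHH and 1 CG window were called, and the call at AGO6 upstream was lost.

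Depth limits the CG and CHG results most, since few such cytosines lie in a window. Rises in CHH of under 1 point were of the size of the background, whose mean was itself higher at 48 h SL.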
